A study of Mus musculus with 12 samples.

Results

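Pyrimidine synthesis genes code for the enzymes that build, convert and recycle the nucleotides carrying uracil, cytosine and thymine bases. They were followed here through 9 members, Cad, Dhodh, Umps, Ctps, Ctps2, Uck2, Nme1, Cmpk1 and Dctd. Members were chosen by matching these symbols to the symbol column of the gene count table, where each had 1 row, which gave 9 of 13780 rows. All 9 passed the filter on low counts.

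RNA sequencing was performed on CD8+ T cells from the spleens of C57BL/6J mice, which the methods describe as wild type and between 8 and 12 weeks old, and the question was how sodium lactate present during activation alters the transcriptome. Cells were frozen directly after isolation (naïve, n = 4), activated for 72 h in plain culture media (media, n = 4) or activated for 72 h in media with 40 mM sodium lactate (lactate, n = 4). Both activated groups received beads carrying antibodies to CD3 and CD28 together with 10 U/ml recombinant human IL-2, while naïve cells received neither. The labels repeat donor tags across a low and a high series of library numbers. Read separately in each series, the tags give 5 donor mice for the activated libraries, and 3 of these contributed to both groups. Cells were purified by positive magnetic selection, and the media control contained no added sodium salt, so that the effects of lactate, sodium and osmolality cannot be told apart in these libraries.

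Cells obtain pyrimidines by de novo synthesis and by salvage. In de novo synthesis, the Cad protein assembles the ring precursor dihydroorotate from glutamine, bicarbonate and aspartate, Dhodh oxidises it to orotate at the inner mitochondrial membrane, and Umps turns orotate into UMP, the parent of the other pyrimidine nucleotides. In salvage, kinases such as Uck2 phosphorylate uridine and cytidine taken up from outside or released from RNA. Dividing lymphocytes need pyrimidines for RNA, DNA, activated sugars and phospholipid precursors, and CTP synthase 1 (Ctps in the mouse table) is known to be required for lymphocyte expansion in humans.

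Total counts ranged from 14726904 to 21478137 per library. Of 5 T cell markers, Cd3d, Cd3e and Cd3g are shared by all T cells, and Cd8a and Cd8b1 mark CD8+ cells. All 5 were detected in every group, with summed levels of 1580 to 3580 CPM (counts scaled to a common library size) in naïve, 2740 to 3460 in media and 2050 to 2610 in lactate libraries. Naïve libraries also carried RNA of other spleen cells. The 3 B cell markers Cd79a, Cd79b and Ms4a1 summed to 277 to 688 CPM in naïve, against 5.91 to 11.8 in media and 4.41 to 6.76 in lactate libraries, and the 4 myeloid markers (Lyz2, Itgam, Csf1r, Cd14) summed to 354 to 1120, 0.223 to 0.982 and 0.314 to 0.53 CPM. Of 5 red cell markers, 4 were measured (Hba-a1, Hba-a2, Hbb-bt, Alas2), at 84.1 to 3370 CPM in naïve, at most 0.231 in media, where Alas2 was at 0, and at most 1.9 in lactate libraries. The CD4+ T cell marker Cd4 lay at 11.2 to 27.1, 0.251 to 0.39 and 0.256 to 0.99 CPM. The NK cell markers Ncr1 and Klrb1c summed to 3.13 to 8.00 CPM in naïve, at most 0.0925 in media, where Ncr1 was at 0, and at most 0.717 in lactate libraries. Naïve library 4 stood apart, with a Cd8a level of 388 CPM against 849 to 1210 in the other naïve libraries. The part of these cells and of this library in the comparisons with naïve cells was not tested, and in bulk RNA fewer cells of a type and less RNA per cell cannot be told apart.

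Coordinates of the members are given on GRCm38, and all are protein-coding genes whose counts cover all annotated exons. Cad (ENSMUSG00000013629) lies at chr5:31054780-31078479 on the plus strand and Dhodh (ENSMUSG00000031730) at chr8:109591343-109608673 on the minus strand. Umps (ENSMUSG00000022814) lies at chr16:33954782-33967038, Ctps (ENSMUSG00000028633) at chr4:120539868-120570276 and Cmpk1 (ENSMUSG00000028719) at chr4:114959336-114987241, each on the minus strand. Ctps2 (ENSMUSG00000031360) is X-linked, at chrX:162901238-163032508 on the plus strand. Uck2 (ENSMUSG00000026558) lies at chr1:167222883-167285320 and Nme1 (ENSMUSG00000037601) at chr11:93956979-93968521, both on the minus strand, and Dctd (ENSMUSG00000031562) lies at chr8:48099092-48153233 on the plus strand. Single member counts ranged from 45 reads for Dctd in naïve library 4 to 7815 reads for Cad in lactate library 1.

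The stretches just before the start sites of 4 members are shown because their transcripts moved in contrasting ways between the groups: Cad, Ctps and Nme1 were higher in lactate than in media, and Ctps2 was lower. They are the parts of the RefSeq promoter windows (250 bases before to 50 after a start, GRCm38.p6) that lie upstream and outside annotated exons. For Ctps, Ctps2 and Nme1, which have further annotated starts, 1 window each is shown. The other Ctps window held none of the motifs searched. Capitals mark matches, on either strand, to the motifs searched: the E-box CACGTG, the cyclic AMP response element TGACGTCA and the GC box GGGCGG.
Cad, chr5:31054624-31054779, plus strand: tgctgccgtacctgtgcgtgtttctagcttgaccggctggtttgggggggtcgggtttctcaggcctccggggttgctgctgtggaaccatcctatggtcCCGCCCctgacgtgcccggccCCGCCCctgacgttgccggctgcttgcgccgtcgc
Ctps, chr4:120570277-120570526, minus strand: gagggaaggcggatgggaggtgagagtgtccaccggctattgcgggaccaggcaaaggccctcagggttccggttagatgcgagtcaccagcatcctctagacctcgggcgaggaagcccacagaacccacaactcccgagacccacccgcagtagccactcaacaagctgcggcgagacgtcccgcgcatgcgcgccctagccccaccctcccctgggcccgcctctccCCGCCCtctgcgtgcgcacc
Ctps2, chrX:162901921-162902170, plus strand: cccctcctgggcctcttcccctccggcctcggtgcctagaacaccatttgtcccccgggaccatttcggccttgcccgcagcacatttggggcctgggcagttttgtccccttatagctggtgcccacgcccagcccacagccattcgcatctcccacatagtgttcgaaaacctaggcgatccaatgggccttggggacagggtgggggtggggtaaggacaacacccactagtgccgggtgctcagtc
Nme1, chr11:93968026-93968220, minus strand: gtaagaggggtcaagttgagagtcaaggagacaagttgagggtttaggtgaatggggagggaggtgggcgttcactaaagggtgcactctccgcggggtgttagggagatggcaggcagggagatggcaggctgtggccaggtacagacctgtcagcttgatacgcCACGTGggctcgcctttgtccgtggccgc

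The window table held 14 windows for 8 of the 9 members, and Dhodh had none. The E-box letters were found in 2 of the 14 member windows, both of Nme1, where 7.15% of all 32851 windows hold them. The cyclic AMP response element was found in 1 of the 14 windows, that of Umps, just after the start, against 1.79% of all windows. The GC box was found in 7 of the 14 windows, which belong to 6 members (Cad, Cmpk1, Ctps, Dctd, Uck2, Umps), against 35.7% of all windows. The Dctd windows that hold it overlap and share the same site, which is thus counted more than once. None of the 3 motifs was found in the windows of Ctps2. In the stretches printed above no matches overlapped. The motifs were chosen after the sequences were seen, and a match describes letters, not a bound site.

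Per annotated exon length, the nucleotide kinase and the second CTP synthase led the members in resting cells, and the salvage kinase did after activation. The length used was that of all annotated exons of a gene merged, such as 3342 bases for Nme1 and 6326 for Dhodh. Transcripts in these cells may be shorter, so the order between genes depends on this length, which was not tested. On a per-length scale (TPM, counts over gene length scaled to a common total, mean ± SD, n = 4), naïve cells held most Cmpk1 (81.4 ± 13.2) and Ctps2 (77.4 ± 10.3), whose libraries overlapped, followed by Uck2 (50.9 ± 4.66), Cad (43.2 ± 4.41) and Umps (39.3 ± 2.59). Ctps (28.4 ± 1.45) and Nme1 (25.2 ± 3.92) overlapped each other, and Dhodh (11.0 ± 1.39) and Dctd (5.11 ± 1.72) were the lowest. In media, Uck2 stood clear of the rest at 146 ± 6.54 TPM. Cmpk1, Ctps2, Umps, Cad and Ctps then followed between 76.6 and 55.0 TPM, each overlapping its neighbour in the order, as did Ctps and Nme1 (30.4 ± 8.34), and Dctd (11.5 ± 5.87) and Dhodh (7.63 ± 1.84) overlapped each other at the bottom. In lactate, Uck2 again stood clear at 186 ± 13.3 TPM, and Cad (115 ± 32.7), Ctps (111 ± 17.3), Umps (100 ± 16.6), Cmpk1 (86.2 ± 4.53) and Nme1 (74.2 ± 12.2) formed a run of overlapping neighbours. Ctps2, second in naïve cells, was seventh in lactate at 43.1 ± 2.99 TPM and overlapped neither neighbour. In lactate Dctd (23.0 ± 5.95) and Dhodh (16.6 ± 1.91) overlapped each other at the bottom.

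**Figure D1:**
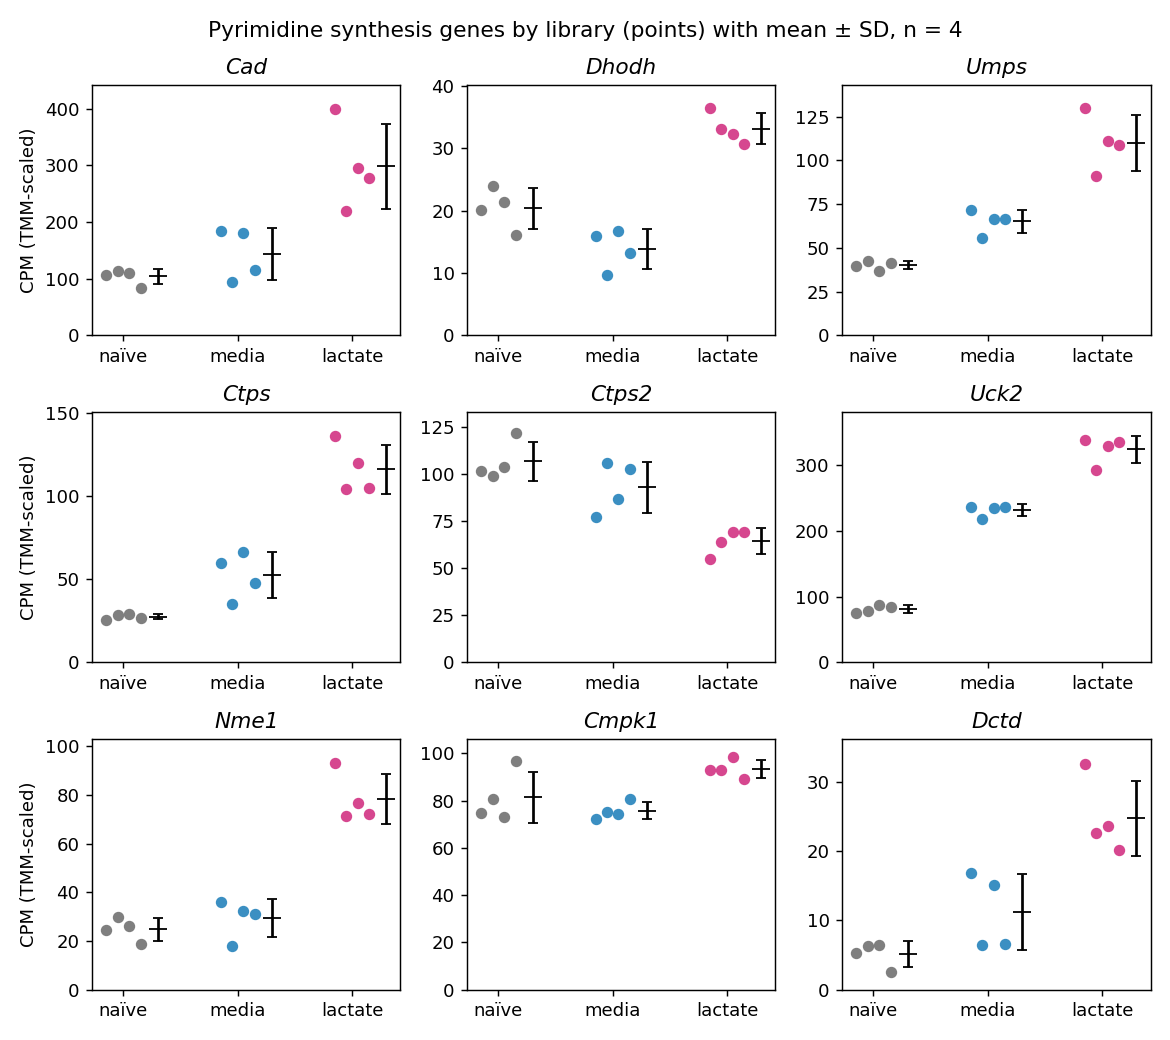
Level of each pyrimidine synthesis gene in every library, in TMM-scaled CPM on linear axes starting at 0, for naïve, media and lactate CD8+ T cells (points), with mean ± SD (bars, n = 4). All 4 lactate libraries lie above all 4 media libraries for 8 genes, and below them for Ctps2.

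The main question was which of these genes differ between cells activated with and without sodium lactate. Of 9 members, 6 were higher in lactate (Cad, Dhodh, Umps, Ctps, Uck2, Nme1), Ctps2 was lower, and Cmpk1 and Dctd did not pass the test, which was edgeR's quasi-likelihood test with Benjamini-Hochberg adjustment over 13767 genes and a threshold of 0.01. Among all genes tested 25.1% were called, 13.9% as higher and 11.1% as lower. The median log2 fold change was 1.06 over the members and -0.00158 over all genes tested. The 4 lactate libraries did not overlap the 4 media libraries for any member, 8 being higher and 1 lower, where 44.7% of all genes did not overlap, 23.2% higher and 21.5% lower. Each member's exact two-sided permutation p was 0.0286, the smallest that 4 against 4 libraries allow.

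Cad, the multifunctional enzyme that opens de novo synthesis and whose first activity is its rate-limiting step, is given in TMM-scaled CPM, as are the other members below. Cad read 107, 114, 110 and 84.0 CPM in naïve libraries 1 to 4, 184, 93.3, 180 and 116 in media and 400, 219, 296 and 277 in lactate. Media libraries 2 and 4 lay in or near the naïve range, and the lowest lactate library was above the highest media library. The lactate to media difference was 1.06 on the log2 scale (SE 0.229, adjusted p = 0.00321), a fold of 2.08. The adjusted p was 0.0119 without media library 4 and 0.0113 without lactate library 1, so the call rests on both.

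Dhodh, the mitochondrial dehydrogenase that passes electrons from dihydroorotate to ubiquinone, was lower in media and higher in lactate than in naïve cells by its fitted values, of which the second passed the test. Its levels were 20.2, 24.0, 21.4 and 16.1 CPM in naïve, 15.9, 9.66, 16.8 and 13.3 in media and 36.5, 33.1, 32.4 and 30.7 in lactate. Every lactate library was above every naïve and media library, while media and naïve overlapped only through naïve library 4. Lactate exceeded media by 1.25 on the log2 scale (SE 0.173, adjusted p = 0.000222), a fold of 2.39.

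Umps, the bifunctional enzyme that makes UMP from orotate, stepped up in both comparisons. It read 39.8, 42.3, 37.0 and 41.3 CPM in naïve, 71.5, 55.8, 66.7 and 66.5 in media and 130, 91.0, 111 and 109 in lactate, with no overlap between any of the 3 groups. The lactate to media difference was 0.76 (SE 0.114, adjusted p = 0.000336), a fold of 1.69. The annotated antisense gene Gm15829 covers 6.11% of the Umps exons, and whether the counting used strand is not given in the sources used here.

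Ctps and Ctps2, the pair of CTP synthases that convert UTP to CTP with glutamine as nitrogen donor, moved in opposite directions. Ctps read 25.8, 28.4, 29.3 and 26.9 CPM in naïve, 59.9, 35.4, 66.5 and 48.0 in media and 136, 104, 120 and 105 in lactate. The groups were separate, and media library 2 was the activated library nearest the naïve range. Ctps was higher in lactate by 1.15 (SE 0.167, adjusted p = 0.000283), a fold of 2.22.

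Ctps2 read 102, 99.1, 104 and 122 CPM in naïve, 77.5, 106, 86.7 and 103 in media and 55.0, 64.2, 69.5 and 69.6 in lactate. Media libraries 2 and 4 were within the naïve range, and all lactate libraries were below every other library. Ctps2 was lower in lactate than in media by a log2 change of -0.53 (SE 0.121, adjusted p = 0.00431), a fold of 0.692. The call was lost without media library 2 (adjusted p = 0.0163), media library 4 (0.0114), lactate library 1 (0.0148) or lactate library 2 (0.0109), with the same direction each time.

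Set against each other within a library, the TPM of Ctps was 0.359, 0.408, 0.402 and 0.314 times that of Ctps2 in naïve, 1.10, 0.474, 1.09 and 0.664 times in media and 3.52, 2.31, 2.45 and 2.16 times in lactate. Per annotated exon length, Ctps2 was therefore the more abundant transcript in every naïve library and Ctps in every lactate library. The media libraries fell on both sides of equality.

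**Figure D2:**
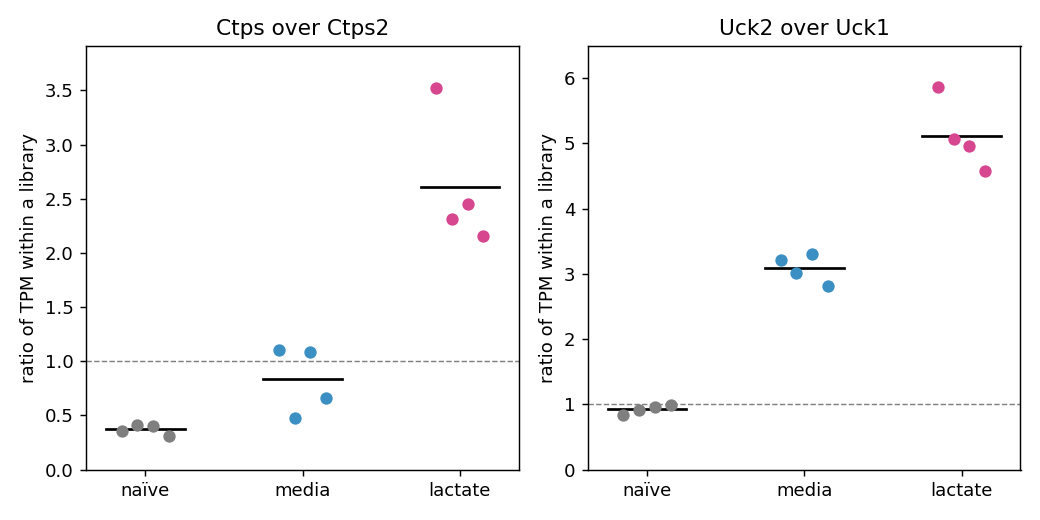
Ratio of TPM within each library (points) and group mean (line) for Ctps over Ctps2 and for the uridine-cytidine kinases Uck2 over Uck1, on linear axes, with equality as a dashed line. Ctps over Ctps2 ran from 0.314 to 0.408 in naïve and from 2.16 to 3.52 in lactate libraries, and Uck2 over Uck1 from 0.840 to 0.998 and from 4.57 to 5.86.

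Uck2, the uridine-cytidine kinase of the salvage route, was separate in all 3 groups. It read 75.6, 77.8, 87.9 and 84.7 CPM in naïve, 236, 218, 234 and 236 in media and 337, 292, 328 and 334 in lactate. Media library 2 and lactate library 2 were the lowest of their groups. The step from media to lactate was 0.48 on the log2 scale (SE 0.0806, adjusted p = 0.000646), a fold of 1.40. Its paralogue Uck1, named here after its values were seen, averaged 44.3 ± 1.76 CPM in naïve, 37.7 ± 2.95 in media and 32.0 ± 3.80 in lactate, and did not pass the test between lactate and media (log2 difference -0.24, SE 0.102, adjusted p = 0.0827). Per length, Uck2 was on average 0.928 times Uck1 in naïve, 3.09 times in media and 5.12 times in lactate libraries. The long noncoding RNA gene Gm2453 overlaps 2.75% of the Uck2 exons on the opposite strand.

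Nme1, a nucleoside diphosphate kinase that makes nucleoside triphosphates from diphosphates, had the highest fold of the 9 members between lactate and media. It read 24.6, 29.9, 26.2 and 18.6 CPM in naïve, 36.0, 18.0, 32.4 and 31.0 in media and 93.0, 71.1, 76.8 and 72.3 in lactate. Naïve and media overlapped, media library 2 being the lowest of all 12, and the lowest lactate library lay well above the highest media library. The lactate to media difference was 1.42 (SE 0.203, adjusted p = 0.000265), a fold of 2.67. The readthrough gene Gm20390 shares 12.5% of the Nme1 exons on the same strand, so reads there may have gone unassigned and the level of Nme1 is uncertain. With length counted over the unshared exons alone, Nme1 averaged 28.8 ± 4.48 TPM in naïve, 34.8 ± 9.53 in media and 84.8 ± 13.9 in lactate.

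Cmpk1, the kinase that phosphorylates UMP and CMP to diphosphates, had the smallest fitted change of the members in each of the 3 comparisons. It read 74.8, 80.7, 73.2 and 96.9 CPM in naïve, 72.4, 75.0, 74.5 and 80.8 in media and 92.9, 93.0, 98.3 and 89.3 in lactate. Lactate libraries were all above media libraries, while naïve library 4 lay among them and the other naïve libraries among the media ones. The lactate to media difference of 0.30 (SE 0.0948, adjusted p = 0.0229, fold 1.23) missed the threshold. It was called with those groups fitted alone (adjusted p = 0.00439) or without naïve library 4 (0.00254).

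Dctd, the deaminase that turns dCMP into dUMP on the way to thymidylate, had the widest errors of the members. It read 5.24, 6.37, 6.47 and 2.52 CPM in naïve, 16.8, 6.49, 15.1 and 6.52 in media and 32.5, 22.6, 23.6 and 20.1 in lactate. The media libraries split into libraries 1 and 3, above 15 CPM, and libraries 2 and 4, just above the highest naïve library, and the lactate libraries were above all others. The lactate to media difference was 1.13 with a wide error (SE 0.354, adjusted p = 0.0227, fold 2.19) and was not called. With the donor as a block the difference rests on 3 paired donors. In that fit it was 1.04 (SE 0.185) and was called (edgeR adjusted p = 0.00273).

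**Figure D3:**
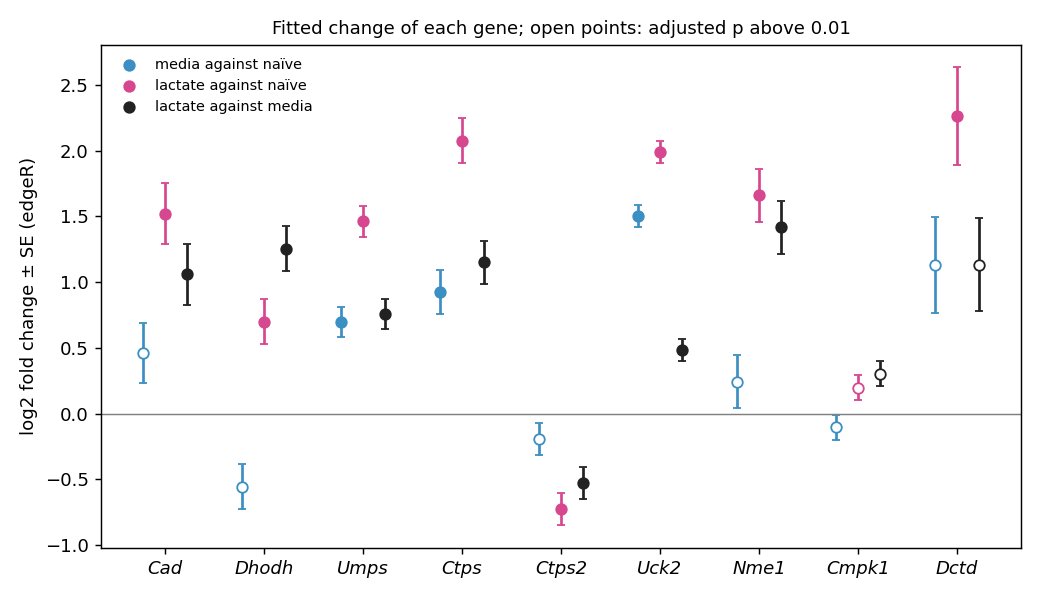
Fitted log2 fold change of each pyrimidine synthesis gene in 3 comparisons (points, edgeR, 4 libraries a group) with its SE (bars), on a linear axis of log2 values. Filled points have an adjusted p of at most 0.01. Between lactate and media, Nme1 lies highest at 1.42 and Ctps2 is the only point below 0, at -0.53.

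Among the 3 donors with cells in both groups, lactate was on the same side of media in all 3 for each of the 9 members. This follows from the lack of overlap between the groups and adds no support of its own. The size of the ratios is what the pairs describe. The lactate to media ratio of CPM ran from 2.2 to 2.59 for Nme1 and from 1.97 to 2.31 for Dhodh, both narrow ranges. It ran from 1.57 to 2.27 for Ctps, from 1.36 to 1.82 for Umps and from 1.25 to 1.43 for Uck2. Cad (1.22 to 2.39) and Dctd (1.5 to 3.09) spread the most among donors. Cmpk1 lay between 1.11 and 1.28 and Ctps2 between 0.677 and 0.741.

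Library numbers in the labels fall into a low series of 8 libraries and a high series of 4, which holds 1 naïve, 1 media and 2 lactate libraries. Each lactate to media difference had the same sign in both, as it must where the groups do not overlap, so only the sizes are informative. As differences of mean log2 CPM in the low and high series, Nme1 gave 1.56 and 1.26 and Dhodh 1.34 and 1.24. Cad gave 1.02 and 1.31, and Ctps 1.19 and 1.22. Umps gave 0.76 and 0.73 and Uck2 0.45 and 0.49, close to equal. Cmpk1 gave 0.33 and 0.21, Dctd 1.19 and 1.72, and Ctps2 -0.59 and -0.56. With 1 media library the high series has no error of its own.

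The comparison of media with naïve cells set cells activated without lactate against freshly isolated cells, which differed in other-cell RNA as well. In this comparison 3 members rose (Umps, Ctps, Uck2), none was called lower, and 6 did not pass the test, where 57.5% of all genes tested were called, 28.5% higher and 29.0% lower. The median was 0.46 over the members and -0.03 over all genes. No member was called lower by edgeR's quasi-likelihood test at the adjusted threshold, but Dhodh had an unadjusted p of 0.00701 and was called lower by DESeq2 (adjusted p = 0.00172) and by edgeR's likelihood ratio test (0.00654). Libraries did not overlap for 4 members, all higher (Umps, Ctps, Uck2 and Dctd), against 61.2% of all genes, 30.7% higher and 30.5% lower.

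Uck2 rose most, by 1.5 (SE 0.0824, adjusted p = 1.67e-08), a fold of 2.83. Ctps rose by 0.93 (SE 0.168, adjusted p = 0.000324) and Umps by 0.70 (SE 0.114, adjusted p = 0.000143), folds of 1.90 and 1.62. These were 1 salvage and 2 synthesis enzymes, and the opening enzyme was not among them: Cad differed by 0.46 (SE 0.228, adjusted p = 0.0889, exact permutation p = 0.200), with media libraries 1 and 3 above and libraries 2 and 4 around the naïve range. Dhodh differed by -0.56 (SE 0.172, adjusted p = 0.0119, exact permutation p = 0.0571). Dctd differed by 1.13 (SE 0.364, adjusted p = 0.0147), and was called without media library 2 (0.00700) or media library 4 (0.00944). Nme1 (0.24, SE 0.201), Ctps2 (-0.19, SE 0.121) and Cmpk1 (-0.11, SE 0.0948) had adjusted p-values of 0.304, 0.171 and 0.343. Without naïve library 4 the calls numbered 4, Dhodh being the addition (adjusted p = 0.00354). In the low and high series the differences were 1.51 and 1.48 for Uck2, 0.90 and 0.83 for Ctps and 0.70 and 0.68 for Umps, while that of Nme1 was 0.04 in the low series and 0.73 in the high series. Those of Cad were 0.40 and 0.46, of Dctd 0.97 and 1.33, of Dhodh -0.67 and -0.28, of Ctps2 -0.18 and -0.25 and of Cmpk1 -0.04 and -0.26. The high series here sets media library 4 alone against naïve library 4 alone, the naïve library with the low Cd8a level.

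Lactate against naïve cells, which shares its lactate libraries with the first comparison and its naïve libraries with the second, gave 7 members higher, 1 lower and 1 that did not pass, where 65.0% of all genes were called, 33.0% higher and 32.0% lower. Libraries did not overlap for 8 members, 7 higher and 1 lower, against 67.8% of all genes, 35.0% higher and 32.8% lower. The median was 1.52 over the members and 0.01 over all genes. Dctd had the highest fold, 4.79 (log2 2.26, SE 0.371, adjusted p = 0.000117), followed by Ctps with 4.22 (log2 2.08, SE 0.172, adjusted p = 3.25e-07) and Uck2 with 3.96 (log2 1.99, SE 0.0835, adjusted p = 2.58e-09). Nme1 was 3.16-fold higher (adjusted p = 1.01e-05), Cad 2.87-fold (6.43e-05), Umps 2.75-fold (2.24e-07) and Dhodh 1.62-fold (0.00248). Ctps2 was lower, at a fold of 0.605 (log2 -0.73, SE 0.121, adjusted p = 0.00014). Cmpk1 overlapped between the groups (log2 0.20, SE 0.0947, adjusted p = 0.0755). Dhodh was not called without naïve library 1 (adjusted p = 0.0141) or lactate library 3 (0.0117), and Cmpk1 was called without naïve library 4 (0.00248). In the low and high series the differences were 2.16 and 3.06 for Dctd, 2.10 and 2.06 for Ctps, 1.97 and 1.97 for Uck2, 1.42 and 1.77 for Cad, 1.60 and 2.00 for Nme1, 1.45 and 1.41 for Umps, 0.67 and 0.96 for Dhodh, -0.77 and -0.81 for Ctps2 and 0.29 and -0.05 for Cmpk1. Naïve library 4 is again the only naïve library of the high series.

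The members were set against 56 further genes of pyrimidine use and cell division, of which 50 were tested. Between lactate and media 8 of these were higher and 7 lower, and their median log2 fold change was 0.06, where 25.1% of all genes were called, 13.9% higher and 11.1% lower. The 15 calls fell to 9 without media library 2, lactate library 1 or lactate library 3 and to 8 without lactate library 4. In the precursor supply list (glutamine, aspartate and ribose phosphate), 2 of 6 genes were higher and none lower. The mitochondrial aspartate aminotransferase Got2 went from 141 ± 13.9 CPM in media to 195 ± 20.7 in lactate (log2 0.47, adjusted p = 0.00274), and Prps1, which makes phosphoribosyl pyrophosphate, from 67.3 ± 10.6 to 117 ± 8.17 (log2 0.80, adjusted p = 0.00762). The cytosolic aminotransferase Got1 differed by 0.69 (adjusted p = 0.0167) and did not pass.

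In the uptake and salvage list 1 of 10 genes was higher and 4 were lower. The equilibrative nucleoside transporter Slc29a1 was higher in lactate, at 168 ± 13.1 CPM against 116 ± 11.5 (log2 0.53, adjusted p = 0.0053). The concentrative transporter Slc28a2 was lower, at 39.4 ± 3.50 against 68.6 ± 13.9 (log2 -0.80, adjusted p = 0.00402). Also lower were deoxycytidine kinase Dck (91.0 ± 6.86 against 139 ± 15.6 CPM, log2 -0.61, adjusted p = 0.00116), mitochondrial thymidine kinase Tk2 (18.9 ± 2.38 against 28.3 ± 3.36 CPM, log2 -0.58, adjusted p = 0.00343) and the uridine-cytidine kinase homologue Uckl1 (39.3 ± 1.93 against 48.7 ± 1.44 CPM, log2 -0.31, adjusted p = 0.00683).

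Of 5 other nucleotide kinases, Nme6 was called, at 10.4 ± 1.44 CPM in lactate against 4.91 ± 1.20 in media (log2 1.08, adjusted p = 0.00152). Cmpk2 had a larger fitted difference in the other direction (log2 -1.98, adjusted p = 0.011) and did not pass. Its lactate libraries (1.47 ± 0.476 CPM) all lay below its media libraries (5.82 ± 1.85 CPM). In the deoxynucleotide and thymidylate list, 1 of 8 was higher and 2 lower. These were Dctpp1, which hydrolyses dCTP (46.5 ± 1.64 against 27.0 ± 4.94 CPM, log2 0.78, adjusted p = 0.00124), the ribonucleotide reductase subunit Rrm2b (17.2 ± 2.48 against 25.8 ± 2.48 CPM, log2 -0.58, adjusted p = 0.00237) and the deoxynucleotide triphosphohydrolase Samhd1 (330 ± 26.2 against 573 ± 191 CPM, log2 -0.79, adjusted p = 0.00708).

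Among 7 genes of pyrimidine breakdown and nucleotidases, 2 were higher. The nucleotidase Nt5c went from 53.5 ± 4.41 to 101 ± 4.77 CPM (log2 0.92, adjusted p = 5.56e-05), and Upb1, of uracil breakdown, was low throughout at 1.30 ± 0.222 and 3.85 ± 0.564 CPM (log2 1.56, adjusted p = 0.000854). In the list of 7 UTP and CTP users, UDP-glucose dehydrogenase Ugdh was lower (78.2 ± 6.58 against 121 ± 14.5 CPM, log2 -0.62, adjusted p = 0.00237). Ugdh acts on UDP-glucose, which is made from UTP, and the other 6 genes of the list did not pass. Of 7 cell division genes, the replication clamp Pcna was higher (369 ± 17.4 against 262 ± 19.7 CPM, log2 0.49, adjusted p = 0.00165) and 6 did not pass. Their list went both ways, with fitted differences from -0.69 for Top2a to 0.57 and a median of 0.36.

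**Figure D4:**
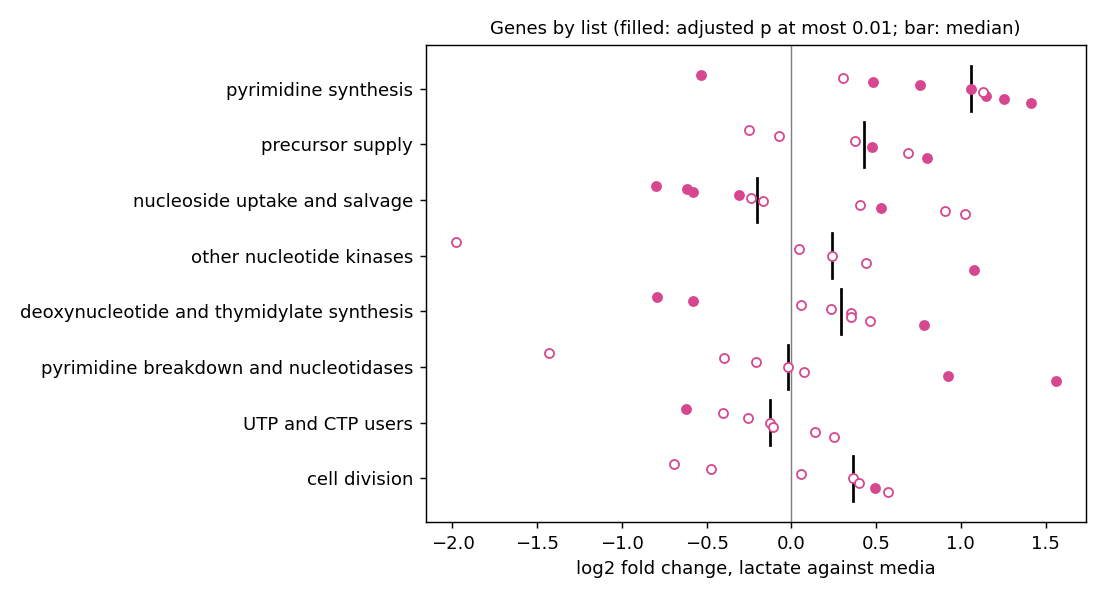
Log2 fold change between lactate and media for each tested gene of the pyrimidine synthesis set and of 7 further lists (points, edgeR, 4 libraries a group), on a linear axis of log2 values. Filled points have an adjusted p of at most 0.01 and black bars are medians, which were 1.06 for the pyrimidine synthesis genes and 0.06 over the 50 genes of the other lists.

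Between media and naïve, 26 of the 50 list genes were higher and 6 lower in media than in naïve cells, where 57.5% of all genes were called, 28.5% higher and 29.0% lower. All 7 cell division genes rose, with a median log2 fold change of 3.31, led by Top2a (60.4 ± 22.1 to 1500 ± 264 CPM, log2 4.63, adjusted p = 4.90e-08) and the mitotic cyclin Ccnb1 (4.07 ± 2.37 to 88.2 ± 4.43 CPM, log2 4.45, adjusted p = 5.32e-08). In the deoxynucleotide list 6 of 8 rose and Rrm2b fell (log2 -0.55, adjusted p = 0.00114), with a median of 2.45, led by the reductase subunit Rrm2 (29.3 ± 21.5 to 218 ± 15 CPM, log2 2.90, adjusted p = 2.01e-05). Rrm2 did not pass between lactate and media (log2 0.35, adjusted p = 0.457).

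In the salvage list 3 of 10 rose (Tk1, Dck, Slc29a1) and 3 fell (Tk2, Slc28a2, Uckl1). Cytosolic thymidine kinase Tk1 went from 11.2 ± 7.01 to 77.0 ± 7.28 CPM (log2 2.78, adjusted p = 8.56e-06) and mitochondrial Tk2 from 70.9 ± 8.03 to 28.3 ± 3.36 (log2 -1.33, adjusted p = 1.61e-06). Precursor supply had 2 of 6 higher, Got2 (log2 1.43, adjusted p = 1.38e-07) and Got1 (log2 1.23, adjusted p = 0.00017). Of the other kinases 2 of 5 rose, Nme7 (log2 1.36, adjusted p = 1.96e-06) and thymidylate kinase Dtymk, and Cmpk2 fell (log2 -1.80, adjusted p = 0.00592), although its naïve libraries ran from 3.59 to 27.9 CPM and overlapped media.

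In the list of UTP and CTP users 5 of 7 genes rose (Ugdh, Pcyt2, Pcyt1a, Ugp2 and Cmas). The largest changes were those of Ugdh, which acts on UDP-glucose (log2 1.70, adjusted p = 2.67e-07), and Pcyt2 of phosphatidylethanolamine synthesis (log2 1.46, adjusted p = 3.14e-07). In the breakdown list 1 of 7 rose, Upb1 (0.271 ± 0.126 to 1.30 ± 0.222 CPM, log2 2.24, adjusted p = 5.50e-05), and Nt5c fell (log2 -0.38, adjusted p = 0.0022), while Nt5e, whose naïve libraries ran from 10.2 to 119 CPM, did not pass (log2 -0.89, adjusted p = 0.251). In lactate against naïve, 31 of the 50 genes were higher and 8 lower, where 65.0% of all genes were called, 33.0% higher and 32.0% lower.

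The likeness of the other members to Cad across libraries differed. Over the 12 libraries, which share the 3 groups and their depths, Pearson's r of log2 CPM with Cad was 0.96 for Nme1, 0.954 for Dctd, 0.953 for Ctps and 0.925 for Umps, lower for Uck2 (0.78), Dhodh (0.758) and Cmpk1 (0.473), and -0.97 for Ctps2. Ranked from the highest r among the tested genes, Nme1 was at 24, Dctd at 42, Ctps at 44 and Umps at 199, while Uck2 was at 1617, Dhodh at 1853 and Cmpk1 at 4660. Over the 8 activated libraries it was 0.97 for Ctps, 0.962 for Dctd, 0.953 for Umps, 0.944 for Nme1, 0.937 for Dhodh, 0.906 for Uck2, 0.725 for Cmpk1 and -0.95 for Ctps2, with ranks from 115 for Ctps to 3219 for Cmpk1 among those above 0. The tested genes most like Cad over 12 libraries were Mthfd1 (0.991), Prmt7 (0.981), Nek6 (0.979), Eef1e1 (0.979) and Prdx3 (0.976), and over the 8 activated libraries Pitrm1 (0.994), Nudt5 (0.992), Naa25 (0.992), Utp20 (0.992) and Mthfd1 (0.991). Mthfd1, a cytosolic folate enzyme of one-carbon metabolism, was in both lists. Such values are descriptions over few libraries.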

How the data were processed

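Total RNA was sequenced as stranded mRNA libraries, read single-end. Per the labels and methods, the authors demultiplexed with bcl2fastq 2.20.0.422, mapped with STAR 2.7.5b to GRCm38, discarded PCR duplicates and used featureCounts to count unique alignments over Ensembl exons. Raw, unnormalized counts and gene lengths of 13780 genes were deposited. Groups, donor tags and library numbers came from the sample labels. Donor tags recur in both series of library numbers and were read separately in each. The paper states 4 independent mouse donors per condition, and the labels tie no naïve library to a donor tag. All 18 pairs of libraries within groups differed beyond sampling noise.

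The members, gene lists, motifs and tests were chosen with earlier results of these data known. Genes reaching 1 CPM in 3 libraries were kept (13767, dropping 13). With R 4.3.3 and edgeR 4.0.16, TMM factors were computed and all 12 libraries entered 1 quasi-likelihood model of 3 groups with no block. Two-sided p-values were adjusted by Benjamini-Hochberg over the 13767 genes and called at 0.01. SE is the absolute log2 fold change over the square root of F. Log2 CPM used a prior count of 2, and TPM used the table's gene lengths. Single members were also tested by exact permutation over 70 arrangements. limma 3.58.1 and DESeq2 1.42.0 gave alternatives, with other scalings, filters, blocks and left-out libraries.

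All members were described. Every list is given by counts. List genes were named when called between lactate and media or when among the 2 with the largest absolute change in their list between media and naïve. Dtymk, Pcyt1a, Ugp2, Cmas and Uck1 were named after their values were seen. The 5 genes most like Cad were named by correlation. Of the listed genes, Cda, Nme2, Nme3, Dpyd, Dpys, Tymp and Hbb-bs were not analysed here. The values of 1 list gene that the rule names and of 1 B cell marker are not reported here. Exon overlaps came from GENCODE M21. Whether counting used strand is not given in the sources used here. Donor tags pair 3 media with 3 lactate libraries, whose deviations from the group means correlated at 0.374, 0.211 and 0.553. The test was checked on simulated counts.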

Additional observations from a re-analysis of the deposited data

Results flagged for a closer look

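In the media group, the lowest library for Uck2 (library 2, 218 CPM) lay far from the others, which ran from 234 to 236 CPM. Its gap to the nearest was 0.881 of the group's range, above Dixon's critical value for 4 values. Of 27 groups (9 members in 3 groups) this was the 1 that passed, and chance alone passes about 1 in 20.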

How the results depend on the processing

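No fold change or median of the members changed sign under the 23 or 24 alternatives run for each. List genes were not followed singly, and their split between lactate and media (8 higher, 7 lower) became 7 higher and 9 lower with DESeq2's size factors and 7 and 8 with total counts or at least 10 counts in every library. The number of members called between lactate and media (7) ran from 5 to 9 over all alternatives, and that between lactate and naïve (8) from 7 to 9. Shares of all genes called were computed for the main fit alone. The counts of the alternatives therefore cannot be set against a share of their own. Members called between media and naïve (3) became 5 with edgeR's likelihood ratio test, 5 with DESeq2 and 5 at an adjusted p of 0.05. List genes called between lactate and media (15) became 23 with those groups fitted alone and 23 at an adjusted p of 0.05, and ran from 8 to 21 with single libraries left out, with 9 without media library 2, 9 without lactate library 1, 9 without lactate library 3 and 8 without lactate library 4. With single libraries left out, the members' median log2 fold change ran from 0.882 to 1.20 between lactate and media, from 0.318 to 0.621 between media and naïve and from 1.37 to 1.64 between lactate and naïve. The cause was not tested.

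The fit with the donor as a block took the 8 activated libraries, but its difference rests on the 3 donors with cells in both groups. Media library 2 and lactate library 3, each alone in its donor, do not enter that difference. The members' median between lactate and media was 0.903 there. In that fit 8 members and 19 list genes were called, and Dctd was the member whose call changed. The share of all genes called there was not computed. Blocking on the number in the sample titles, which follows the donor in 2 of 4 pairs (correlations 0.374, 0.297, 0.0038 and 0.553), called 8 members between lactate and media and 4 between media and naïve, Dctd being the addition in both. Dctd between lactate and media was also called with the likelihood ratio test (adjusted p = 0.00743), DESeq2 (0.00776) and limma voom (0.00866). The planned sum of Nme1 with its neighbour and their readthrough gene was not run, since their rows were not analysed here. The lowest count of a member was 45 reads, for Dctd.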
